A study of Mus musculus with 18 samples.

Results

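The genes described here are 35 genes of the smooth muscle contractile programme, measured in mouse uterus, in eutopic endometrium and in ectopic lesions to gauge how much muscle transcript each tissue held. They were given as a list of names, with no threshold on a measured value, and each was read by the brightest array probe whose transcript maps to its symbol. All 35 were among the 22911 gene symbols on the array and all passed the filter on dim probes, so none is missing from the 33178 features tested. The signal of 32 genes was well above background on all 18 arrays. Sgcd was so on 17 arrays, Lmod1 on 13 and Pln on 9.

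Total RNA was measured on 18 one-colour arrays, 3 in each of 6 groups, and each array held RNA pooled from 3 animals, so a group stood for 9 animals. PRCre mice (PRCre/+), which carry a Cre driver, were the controls, and ERBOE mice are described as overexpressing oestrogen receptor beta. Which promoter drives the receptor in ERBOE mice was not given by the labels. Uterus of both genotypes was taken at estrus from mice of 12 weeks that had no surgery. PRCre and ERBOE lesions grew from 2 mm punches of uterus of those genotypes, put into otherwise intact wild-type C57BL/6J hosts of 8 weeks and collected at estrus 4 weeks later. Eutopic endometrium came from PRCre and ERBOE hosts, also 8 weeks old at surgery, that carried a wild-type implant for the same time. In a lesion, therefore, the graft had the named genotype and the host was wild type. The labels hold a contradiction. The source text of the ERBOE lesion and eutopic samples says "without endometriosis", and the design text speaks of lesions where the eutopic samples are described. Groups follow the sample titles. The grafts are called endometrium fragments in one phrase of the design text and uterus fragments in another, so whether a punch held the muscle coat is not settled by the labels.

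Smooth muscle contracts when calcium entering through voltage-gated channels, or released from stores, activates myosin light chain kinase, and it relaxes when myosin phosphatase reverses that step. The uterine wall has an inner endometrium and an outer muscle coat, the myometrium, and the walls of blood vessels hold smooth muscle too. Many contractile genes share control by serum response factor and its coactivator myocardin, which act at a DNA element called the CArG box. In bulk RNA, fewer muscle cells and less RNA per muscle cell cannot be told apart.

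The CArG box is shown because serum response factor and myocardin act through it on many contractile genes. It is written here as a pair of C bases, 6 bases that are each A or T, and a pair of G bases, a pattern that reads alike on both strands. RefSeq promoter windows of assembly GRCm38.p6, from 250 bases before to 50 bases after a transcript start, were found for 31 of the 35 genes, and Myh11, Tagln, Actg2 and Myocd had no entry. The box was in 5 of those 31 genes (16.1%) and in 6 of their 40 promoter windows, against 488 of 27025 genes (1.81%) and 535 of 32851 windows (1.63%) in the whole table. The 5 genes are printed in gene orientation, with the box in capitals.
Myl9: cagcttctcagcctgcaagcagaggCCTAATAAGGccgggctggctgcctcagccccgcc
Myl6: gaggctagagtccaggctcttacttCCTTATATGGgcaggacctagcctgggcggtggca
Vcl: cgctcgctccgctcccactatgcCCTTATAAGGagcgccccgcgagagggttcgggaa
Ldb3: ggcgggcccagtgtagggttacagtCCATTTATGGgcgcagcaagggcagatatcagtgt
Dmd: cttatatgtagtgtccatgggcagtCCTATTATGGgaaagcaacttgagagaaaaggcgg
In the same order these lie at chr2:156775278-156775337 on the plus strand, chr10:128493025-128493084 on the minus strand, chr14:20929148-20929205 on the plus strand, chr14:34588682-34588741 on the minus strand and chrX:82948747-82948806 on the plus strand. The box began 161 bases before the start of Myl9, 50 before that of Myl6, 227 before that of Vcl, 98 before that of Dmd, and 35 or 109 before the 2 starts of Ldb3. A match describes these letters only, and its absence in the other 26 genes says only that the letters were not in this window. The tissue differences of these 5 genes are given with their roles further on, and none of them passed the test in any comparison.

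Array brightness, read as the 75th percentile of spot signal, was 237 on PRCre uterus replicate 1 and 451 to 740 on the other 17 arrays, and 0 spots were saturated. Eutopic arrays were missing from slide 1, and PRCre lesion arrays from slide 3. Levels below are log2 signal minus that percentile, so 0 is the brightness of the 75th percentile probe, and levels of different genes are not compared because probes differ in efficiency. Errors beside a difference are limma standard errors (SE), and adjusted p-values are from limma with Benjamini-Hochberg adjustment over all 33178 features, with 0.05 as the threshold. Esr2, the gene of oestrogen receptor beta, did not read higher in the arrays labelled ERBOE, with differences of -0.24, 0.01 and -0.25 (SE 0.20 each) in uterus, eutopic endometrium and lesions. The labels do not say whether its probe reads the transgene's RNA, so the genotype comparisons below rest on the labels alone.

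Lesions had the lowest array medians of these genes, but the tissues overlapped. Lesion arrays had a median deviation over the 35 genes, each taken against its own mean over 18 arrays, of -1.08 to 0.20, against -0.04 to 0.77 in eutopic endometrium and -0.39 to 0.29 in uterus. Single arrays set much of the range. ERBOE lesion replicate 2 was the lowest array at -1.08 and held the lowest of the 18 values for 15 genes. PRCre eutopic replicate 1 was the highest at 0.77 and held the highest value for 19 genes. Among the rest, PRCre lesion replicate 1 (-0.55) and PRCre uterus replicate 1 (-0.39) were low. The median within-group SD of the 35 genes was 0.52, against 0.49 over all features, and it ran from 0.24 for Myl6 to 1.19 for Oxtr. Tested across all 6 groups at once with limma's F test, 0 of 35 genes passed, and 4 had an unadjusted p under 0.05 (Pln, Sgcd, Synpo2 and Ppp1r12b), while 0.699% of all features passed and 11.1% had such a p.

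**Figure D1:**
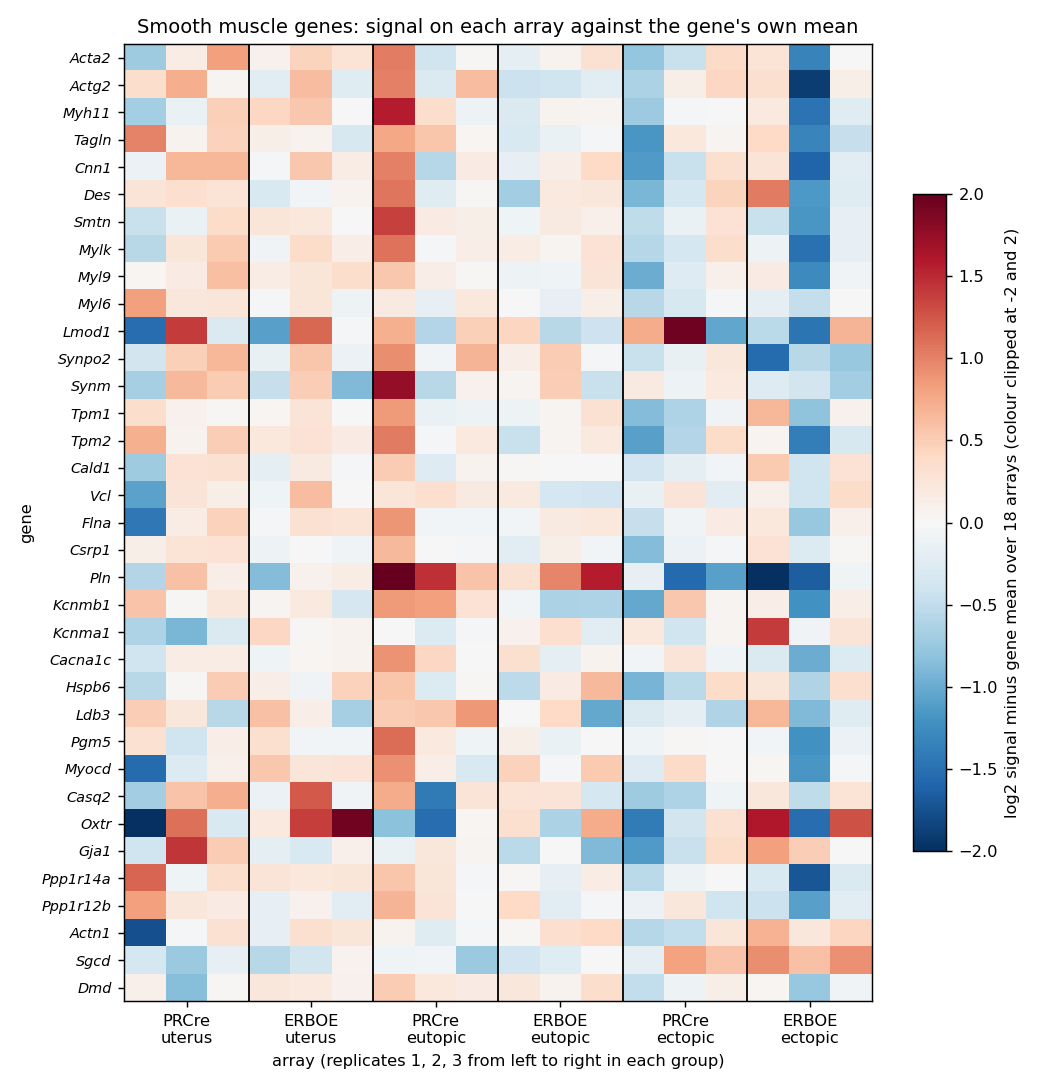
Signal of each of the 35 genes (rows) on each of the 18 arrays (columns, in 6 groups of 3), as log2 signal minus the gene's own mean over all arrays, with red above and blue below that mean. The first PRCre eutopic column is red for most genes and the second ERBOE lesion column is blue for most genes, while the other arrays of the same groups are pale.

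**Figure D2:**
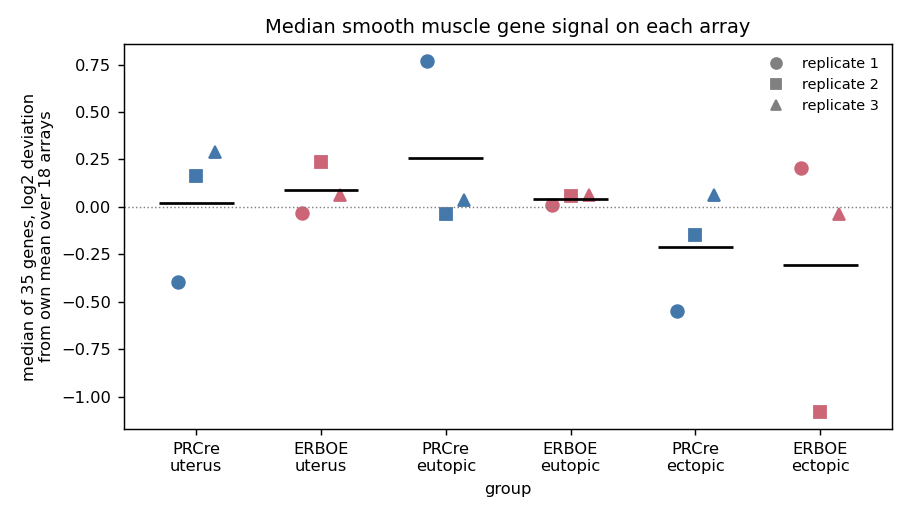
Median deviation of the 35 genes on each array (log2 units), by group, with circles, squares and triangles for replicates 1, 2 and 3, blue for PRCre, red for ERBOE and a bar at the group mean. ERBOE lesion replicate 2 sits at -1.08 and PRCre eutopic replicate 1 at 0.77, and the 3 ERBOE eutopic arrays lie between 0.01 and 0.06.

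No difference in smooth muscle transcripts was detected between eutopic endometrium and whole uterus at the precision of these arrays. Over the 35 genes the median difference of eutopic endometrium from uterus, as the mean of both genotypes, was 0.06 on the log2 scale, against 0.02 over all features. By limma 0 of 35 genes passed, with 1 at an unadjusted p under 0.05, where 0.0% of all features passed and 3.95% had such a p. The half-width of a gene's 95% interval had a median of 0.62, so the data leave room for differences of that size either way. Acta2, smooth muscle alpha-actin, differed by -0.04 ± 0.34 (95% interval -0.76 to 0.69). For Myh11, the smooth muscle myosin heavy chain, the difference was 0.17 ± 0.33 (interval -0.53 to 0.87), and for Des, the muscle intermediate filament desmin, 0.00 ± 0.35 (interval -0.75 to 0.75). The smallest p belonged to Pln, phospholamban, at 1.27 ± 0.41 (adjusted p = 0.985), then to Dmd, dystrophin, at 0.29 ± 0.20, and Cacna1c, the pore of the L-type calcium channel, at 0.27 ± 0.19. That Cacna1c value is of the brightest probe, and the probes of the gene differed in sign in this comparison. Within PRCre the median was 0.14 and 0 genes passed, with 1 (Pln) at an unadjusted p under 0.05 and background shares of 0.0% and 6.68%. Without PRCre eutopic replicate 1 that median was -0.06 and without eutopic replicate 2 it was 0.43. The groups did not overlap for 4 genes, against 10.0% of all features. The 3 smallest p there were of Pln (1.39 ± 0.57), Dmd (0.54 ± 0.28) and Myocd (0.81 ± 0.43). Within ERBOE the median was -0.08, 0 genes passed and 0 had an unadjusted p under 0.05, with 0.0% and 3.29% of all features doing so. There was no overlap for 2 genes there, against 11.6% of features, and the smallest p were of Pln (1.16 ± 0.57), Oxtr (-1.02 ± 0.90) and Vcl (-0.36 ± 0.33).

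Lesions read lower than eutopic endometrium for 30 of the 35 genes, but the difference passed the test for 1 of them. As the mean of both genotypes the median difference was -0.41, against -0.09 over all features, of which 60.9% were below 0. Pln fell by 2.29 ± 0.41 (SE) on the log2 scale (adjusted p = 0.0112 by limma), with all 6 lesion arrays below all 6 eutopic arrays. Its probe was well above background on 1 of the 6 lesion arrays and on all 6 eutopic arrays, so the lesion level, and with it the size of the fall, is not well measured. The share of all features that passed was 1.28%, so 1 of 35 is near the background. Unadjusted p under 0.05 was met by 10 of 35 genes, against 12.5% of features, and apart from Pln they were Synpo2, Smtn, Cacna1c, Ppp1r12b, Ppp1r14a, Dmd, Mylk and Tpm2, all lower, and Sgcd, higher. The actin and myosin genes themselves did not pass: Acta2 differed by -0.46 ± 0.34 (interval -1.19 to 0.26), Actg2 by -0.31 ± 0.36 (interval -1.08 to 0.46) and Myh11 by -0.65 ± 0.33 (interval -1.35 to 0.05).

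In PRCre the median of lesions against eutopic endometrium was -0.47, and 0 genes passed by limma, with 4 at an unadjusted p under 0.05 where the shares of all features were 0.00301% and 3.97%. Lesion and eutopic arrays did not overlap for 3 genes (Pln, Ldb3 and Dmd), against 6.91% of features. The smallest p were of Pln (-2.36 ± 0.57), Sgcd (0.68 ± 0.29) and Ldb3 (-0.99 ± 0.44). In ERBOE the median was -0.26, 0 genes passed and 5 had an unadjusted p under 0.05, against 0.618% and 10.5% of features. The ERBOE groups did not overlap for 10 genes, 8 of them lower in lesions, against 20.2% of features, 13.2% being lower. The smallest p in ERBOE were of Pln, which was above background on none of the 3 lesion arrays and so has only a bound there (at least 1.90-fold lower), Sgcd (1.02 ± 0.29) and Synpo2 (-1.16 ± 0.36). The shift depended on the outlying arrays. In PRCre the median was -0.24 without eutopic replicate 1, -0.28 without lesion replicate 1, -0.66 without eutopic replicate 2 and -0.70 without lesion replicate 3, and in ERBOE it was 0.07 without lesion replicate 2 and -0.56 without lesion replicate 1. Without ERBOE lesion replicate 2 the median for both genotypes went from -0.41 to -0.22, and without both that array and PRCre eutopic replicate 1 it was -0.07, with 11 genes above 0 and a median of -0.08 over all features. Pln was then at -1.99 ± 0.44 (SE) with an adjusted p of 0.0557, so its call was lost. Slides 2 and 3 each held lesion and eutopic arrays of ERBOE, but not lesion replicate 2. The ERBOE medians there were 0.04 and 0.07, against -0.15 and -0.08 over all features. In PRCre slide 2 was the only slide with both tissues, and its median was -0.51, against -0.04 over all features.

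Against whole uterus, lesions also read lower for 30 of 35 genes, and 1 gene passed the test, in the other direction. Sgcd, the dystrophin-associated protein delta-sarcoglycan, rose by 0.95 ± 0.20 (SE; adjusted p = 0.0249 by limma), while 2.1% of all features passed. The median over the 35 genes was -0.35, against -0.08 over all features, of which 58.6% were below 0. An unadjusted p under 0.05 was met by 9 of 35 genes, against 16.3% of features: Ppp1r14a, Myl6, Synpo2, Tpm2, Myl9, Pln, Ppp1r12b and Cnn1 were lower and Sgcd was higher. The Sgcd call was lost when any one of 6 arrays was left out (PRCre uterus replicate 2, ERBOE uterus replicates 1 and 2, PRCre lesion replicate 2, and ERBOE lesion replicates 1 and 3), with adjusted p of 0.0572 to 0.0746. In PRCre the median was -0.37, 0 genes passed and 3 had an unadjusted p under 0.05, against 0.00904% and 11.9% of features. Lesion and uterus arrays did not overlap there for 3 genes, against 14.1% of features. The smallest p in PRCre were of Myl6 (-0.74 ± 0.22), Sgcd (0.81 ± 0.29) and Csrp1 (-0.57 ± 0.25), and the Csrp1 value was 0.02 after quantile normalization, so it has no settled direction. In ERBOE the median was -0.44, 0 genes passed and 3 had an unadjusted p under 0.05, against 1.24% and 11.9% of features. No overlap was seen for 10 genes, 9 of them lower in lesions, against 20.1% of features, 11.3% being lower. The smallest p there were of Sgcd (1.09 ± 0.29), Synpo2 (-1.05 ± 0.36) and Ppp1r14a (-1.01 ± 0.37). Without ERBOE lesion replicate 2 the median of both genotypes was -0.13 and that of ERBOE alone was -0.09. In PRCre the median went from -0.37 to -0.10 without uterus replicate 3 and to -0.11 without lesion replicate 1. Within slides 1, 2 and 3 the ERBOE median was -1.04, -0.28 and 0.19, and within slides 1 and 2 the PRCre median was -0.23 and -0.57.

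**Figure D3:**
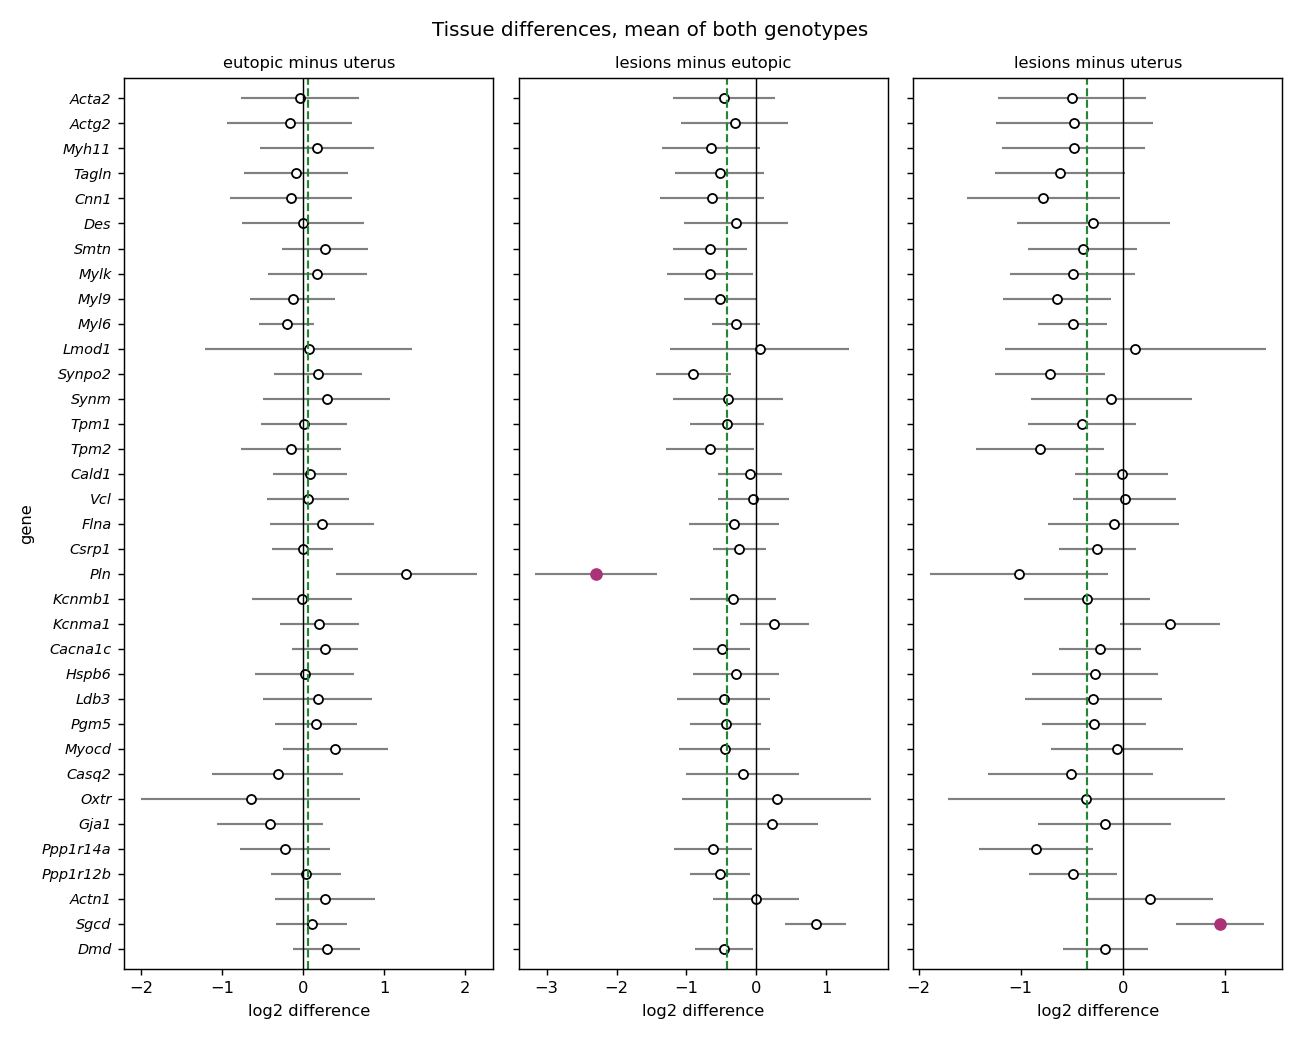
Log2 difference of each of the 35 genes between tissues, as the mean of both genotypes, with its 95% interval from limma, for eutopic minus uterus, lesions minus eutopic and lesions minus uterus. Filled points passed the threshold (Pln in lesions against eutopic endometrium, Sgcd in lesions against uterus), open points did not, and the dashed line is the median over the genes, at 0.06, -0.41 and -0.35.

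Markers of fat cells differed far more between these tissues than smooth muscle genes did. Adipocyte markers rose in lesions for 9 of 10 genes against eutopic endometrium and for 9 of 10 against uterus, with median differences of 5.80 and 7.05, and Plin1, which coats fat droplets, rose by 5.41 ± 0.58 and 6.30 ± 0.58 (SE; adjusted p = 0.000469 and 0.000115). Fabp4, a fatty acid carrier of fat cells, rose by 6.76 ± 0.89 and 7.80 ± 0.89. Their summed signal, as a multiple of the array's 75th percentile, was 92.7 to 432 in PRCre lesions and 416 to 637 in ERBOE lesions, against 1.91 to 3.67 in uterus and 1.93 to 31.6 in eutopic endometrium. The summed signal of the 35 smooth muscle genes on that scale was 781 to 1677 in lesions, 1326 to 2416 in eutopic endometrium and 1501 to 2032 in uterus. Macrophage markers had medians of 0.95 and 1.27, with Lyz2 (2.49 ± 0.58) and Csf1r (1.35 ± 0.33) higher than in uterus. Against eutopic endometrium 0 of 7 passed by limma, with 5 at an unadjusted p under 0.05 where 12.5% of all features were. Tnc, a matrix protein of activated fibroblasts, rose by 2.60 ± 0.46 and 2.53 ± 0.46, the only one of 10 fibroblast markers to pass, and the list medians were 0.52 and 0.41. Endothelial (10 genes, medians 0.48 and 0.47), pericyte (9 genes, 0.13 and 0.05), mesothelial (6 genes, -0.24 and -0.07), epithelial (15 genes, -0.25 and -0.25) and endometrial stromal markers (8 genes, -0.38 and -0.19) had 0 genes past the threshold in either comparison by limma. At an unadjusted p under 0.05 there were 1 and 2 endothelial genes, 1 and 0 pericyte genes, 1 and 0 stromal genes, and none of the epithelial or mesothelial genes. Of all features 12.5% were at that level against eutopic endometrium and 16.3% against uterus.

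Skeletal muscle shares several of these genes, so its markers were read as well. Of 17, Myh1, Myh2, Myh4 and Myod1 were too dim to be tested, and of the other 13 only Myl1 passed, higher in lesions than in uterus by 2.22 ± 0.52, while the list median was -0.16 against eutopic endometrium and -0.26 against uterus. Their summed signal was 4.32 to 21.4 in lesions, 6.41 to 19.0 in eutopic endometrium and 9.33 to 18.4 in uterus. The part of the adipocyte, macrophage and fibroblast markers in the smooth muscle differences was not tested. ERBOE lesion replicate 2, the array with the lowest smooth muscle signal, had an adipocyte sum of 416, the lowest of the 3 ERBOE lesion arrays, and a macrophage sum of 62.3. By the median deviation of the adipocyte markers that array was not the lowest, at 5.06 against 4.92 and 5.41 on ERBOE lesion replicates 1 and 3. PRCre eutopic replicate 1, with the highest smooth muscle signal, had an adipocyte sum of 30.9 and the lowest epithelial sum of its group, at 120 in a range that reached 538. That array also had the highest endothelial, stromal, pericyte and mesothelial sums of its group, at 89.2, 56.1, 37.7 and 24.9. Its macrophage sum of 31.3 was the lowest of the group. ERBOE eutopic replicate 1 had an adipocyte sum of 31.6 and a smooth muscle median deviation of 0.01.

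The comparison of ERBOE with PRCre asked whether the genotype labelled as overexpressing the receptor changed these genes within a tissue, and 0 of 35 genes passed in any of the 3 tissues. In uterus the median difference was 0.03, against -0.12 over all features, and 2 genes had an unadjusted p under 0.05 by limma where 0.0% of features passed the adjusted threshold and 9.93% the unadjusted one. The 3 smallest p were of Kcnma1, the pore of the large-conductance calcium-activated potassium channel, at 0.78 ± 0.32, Myocd, myocardin, at 0.92 ± 0.43, and Oxtr, the oxytocin receptor, at 1.67 ± 0.90. Groups did not overlap for 5 genes, against 15.0% of features: Kcnma1 and Myocd read higher, and Des, Csrp1 and Ppp1r12b lower, in ERBOE. In eutopic endometrium the median was -0.25 (all features -0.01), and 29 of 35 genes were below 0 where 50.8% of features were. Of the 21 genes with several probes, 7 had probes that differed in sign there. By limma 1 gene had an unadjusted p under 0.05, where 2.94% of features had one and 0.0% passed after adjustment. The smallest p were of Kcnmb1, the smooth muscle subunit of the same potassium channel, at -1.09 ± 0.41, Ldb3 at -0.85 ± 0.44 and Actg2 at -0.79 ± 0.51. Groups did not overlap for 3 genes (Tagln, Kcnmb1 and Ldb3), all lower in ERBOE, against 9.13% of features, 4.03% being lower. Without PRCre eutopic replicate 1 the median was -0.04 and 16 genes were above 0. Within slides 2 and 3 it was -0.05 and -0.29, and PRCre eutopic replicate 1 was on slide 3.

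In lesions the ERBOE minus PRCre median was -0.09 (all features -0.06), with 1 gene at an unadjusted p under 0.05 by limma, 4.42% of features at that level and 0.0% past the adjusted threshold. Synpo2 (-0.83 ± 0.36), Cacna1c (-0.56 ± 0.27) and Gja1 (0.85 ± 0.43) had the smallest p. Genotypes did not overlap for 3 genes (Synpo2, Synm and Cacna1c), all lower in ERBOE, against 11.4% of features, 6.11% being lower. These are readings of the brightest probe, and for Synm and Cacna1c the probes of the gene differed in sign in this comparison. The sign of the lesion median depended on 1 array: without ERBOE lesion replicate 2 it was 0.27, and with arrays weighted by their spread it was 0.35. On slide 1, where that array lay, the median was -0.91, and on slide 2 it was 0.37. Adipocyte marker sums were 416 to 637 in ERBOE and 92.7 to 432 in PRCre lesions, and their part in these differences was not tested. In uterus the median was -0.14 without PRCre replicate 1 and -0.10 without ERBOE replicate 2, so its sign is not settled. For uterus the medians within slides 1, 2 and 3 were -0.25, 0.14 and 0.21, with 1 array of each genotype on a slide. A gene's 95% interval had a median half-width of 0.87 in these comparisons, and it reached past a 2-fold change for 23 genes in uterus, 23 in eutopic endometrium and 27 in lesions, so differences of that size are not shown to be missing.

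Markers of other cell types were also read between genotypes, and 0 genes passed the threshold by limma. An unadjusted p under 0.05 was met by 9.93%, 2.94% and 4.42% of all features in uterus, eutopic endometrium and lesions. The median difference over all features was -0.12, -0.01 and -0.06 in the same order, and 50.8% of features were below 0 in eutopic endometrium. In uterus 14 of 15 epithelial markers read higher in ERBOE (median 1.60, 9 at an unadjusted p under 0.05), with summed signals of 299.5 to 580.3 against 146 to 225 in PRCre. All 10 endothelial markers read lower there (median -0.60, 4 at an unadjusted p under 0.05), with sums of 34.9 to 40.0 against 44.4 to 98.9. The 44.4 was on the dim array, PRCre uterus replicate 1, and the other PRCre uterus arrays had 95.6 and 98.9. In eutopic endometrium all 15 epithelial markers read lower in ERBOE (median -0.41) and all 8 stromal markers higher (median 0.52), with 0 of either at an unadjusted p under 0.05. Epithelial sums there were 196 to 266 in ERBOE and 120 to 538 in PRCre, and stromal sums 39.2 to 67.4 and 20.9 to 56.1. The genotypes overlapped for both lists. In lesions all 10 adipocyte markers read higher in ERBOE (median 1.60, 3 at an unadjusted p under 0.05). The part of these markers in the genotype differences of the smooth muscle genes was not tested.

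Whether the genotype difference itself differed between tissues was tested as an interaction, and 0 of 35 genes passed in any of the 3 contrasts. Between lesions and eutopic endometrium 1 gene had an unadjusted p under 0.05 by limma, as did 1.63% of features, and 0.0% passed after adjustment. The smallest p were of Gja1 (1.37 ± 0.61), Csrp1 (0.61 ± 0.35) and Ldb3 (1.05 ± 0.63). For lesions against uterus 2 genes had an unadjusted p under 0.05 (6.75% of features, 0.0% after adjustment), with Gja1 (1.49 ± 0.61), Myocd (-1.35 ± 0.61) and Csrp1 (0.64 ± 0.35) first. For eutopic endometrium against uterus 0 genes had an unadjusted p under 0.05 (5.1% of features, 0.0% after adjustment), and Vcl (-0.83 ± 0.47), Myh11 (-1.10 ± 0.65) and Smtn (-0.71 ± 0.50) had the smallest p. These contrasts share groups with one another and with the comparisons above.

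**Figure D4:**
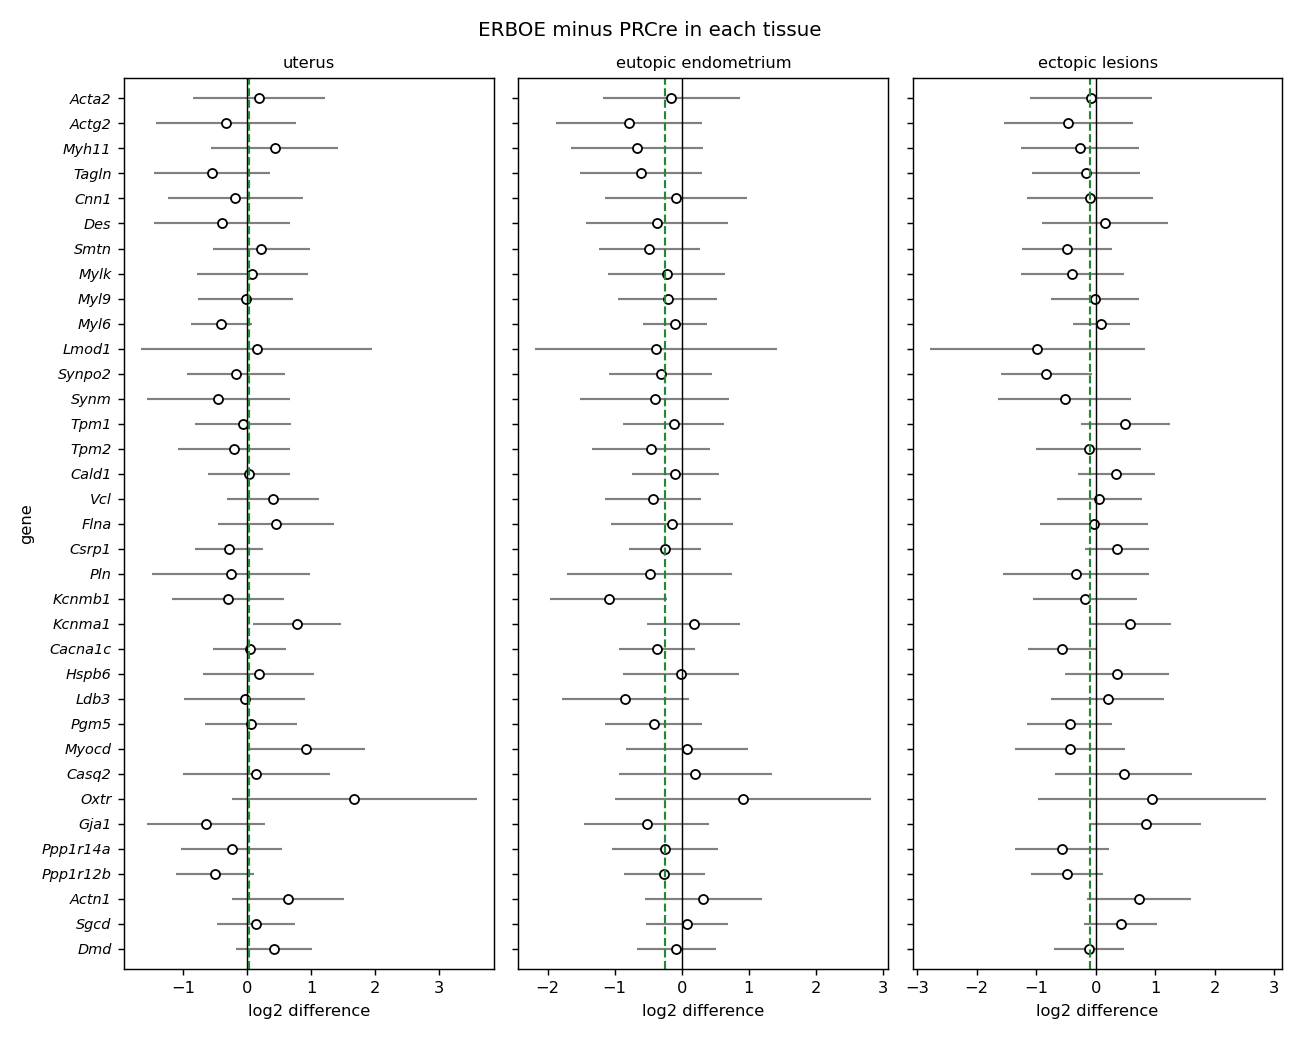
Log2 difference of ERBOE from PRCre for each of the 35 genes in uterus, eutopic endometrium and lesions, with its 95% interval from limma and the median over the genes as a dashed line at 0.03, -0.25 and -0.09. All points are open because no gene passed the threshold, and the intervals of Oxtr and Lmod1 are the widest.

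The actin filament genes give the filament and the proteins along it. In PRCre arrays Acta2 read 6.64, 7.51 and 8.18 in uterus, 8.38, 6.97 and 7.39 in the eutopic endometrium and 6.58, 6.91 and 7.74 in lesions. Acta2 in ERBOE arrays was 7.45, 7.81 and 7.63 in uterus, 7.19, 7.43 and 7.66 in the eutopic endometrium and 7.63, 6.02 and 7.35 in lesions. The tissues overlapped, with the lowest value in ERBOE lesion replicate 2 and the highest in PRCre eutopic replicate 1. Its dimmer probes gave -0.07 ± 0.21 and -0.58 ± 0.40 for lesions against eutopic endometrium, against -0.46 ± 0.34 for the brightest one. In PRCre arrays Actg2 was measured at 3.88, 4.26 and 3.58 in uterus, 4.54, 3.23 and 4.14 in the eutopic endometrium and 2.90, 3.64 and 3.95 in lesions. Actg2 in ERBOE arrays was 3.30, 4.14 and 3.29 in uterus, 3.10, 3.14 and 3.31 in the eutopic endometrium and 3.85, 1.62 and 3.65 in lesions. Actg2, the gamma-actin of gut and other visceral muscle, was lowest in ERBOE lesion replicate 2, more than 1 log2 unit below every other array, and its remaining lesion values lay within the uterine range or just below it. In PRCre arrays Tagln had signals of 8.97, 8.04 and 8.43 in uterus, 8.73, 8.52 and 8.00 in the eutopic endometrium and 6.80, 8.18 and 8.03 in lesions. Tagln in ERBOE arrays was 8.08, 8.04 and 7.65 in uterus, 7.66, 7.84 and 7.93 in the eutopic endometrium and 8.36, 6.65 and 7.51 in lesions. Transgelin, encoded by Tagln, is an actin-binding marker of the contractile state, and its lesion and eutopic ranges overlapped (-0.53 ± 0.30). In PRCre arrays Cnn1 was at 6.34, 7.13 and 7.12 in uterus, 7.47, 5.89 and 6.63 in the eutopic endometrium and 5.32, 6.01 and 6.78 in lesions. Cnn1 in ERBOE arrays was 6.43, 7.00 and 6.60 in uterus, 6.29, 6.59 and 6.86 in the eutopic endometrium and 6.72, 4.86 and 6.25 in lesions. Calponin, encoded by Cnn1, restrains myosin on the filament, and its difference of lesions from uterus was -0.78 ± 0.35 (unadjusted p = 0.0424, adjusted 0.284 by limma).

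Lmod1 encodes leiomodin, which starts new actin filaments in smooth muscle. In PRCre arrays Lmod1 gave -5.79, -2.88 and -4.55 in uterus, -3.56, -4.86 and -3.79 in the eutopic endometrium and -3.53, -2.32 and -5.30 in lesions. Lmod1 in ERBOE arrays was -5.35, -3.12 and -4.30 in uterus, -3.84, -4.83 and -4.69 in the eutopic endometrium and -4.80, -5.72 and -3.58 in lesions. Its probe was dim, and its within-group SD of 1.12 was larger than any tissue or genotype difference of its means, the largest being -0.98 ± 0.84 between genotypes in lesions. The tropomyosins Tpm1 and Tpm2, which lie along the filament, read 1.76 to 3.29 and 3.76 to 5.51 in lesions, 2.49 to 3.48 and 4.70 to 6.17 in eutopic endometrium and 2.62 to 2.99 and 5.21 to 5.84 in uterus. Their lesion minus eutopic differences were -0.41 ± 0.25 and -0.66 ± 0.29. Probes of Tpm1 disagreed, with 0.01 ± 0.12 and 0.29 ± 0.24 from its other probes, whereas the other probe of Tpm2 gave -0.82 ± 0.26. Cald1, caldesmon, read 3.98 to 4.89 in lesions, 4.11 to 4.89 in eutopic endometrium and 3.66 to 4.69 in uterus, with a lesion minus eutopic difference of -0.09 ± 0.21 (interval -0.55 to 0.37).

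Myosin and the proteins that switch it on or off had lesion and eutopic ranges that overlapped over both genotypes. In PRCre arrays Myh11 read 2.71, 3.26 and 3.86 in uterus, 4.96, 3.74 and 3.29 in the eutopic endometrium and 2.67, 3.37 and 3.39 in lesions. Myh11 in ERBOE arrays was 3.80, 3.93 and 3.40 in uterus, 3.10, 3.45 and 3.45 in the eutopic endometrium and 3.59, 1.91 and 3.15 in lesions. Myh11 was highest in PRCre eutopic replicate 1 and lowest in ERBOE lesion replicate 2, and of the other 5 lesion arrays 4 lay within the uterine range and PRCre replicate 1 just below it. Its 3 probes gave -0.65, -0.69 and -0.81 for lesions against eutopic endometrium. In PRCre arrays Mylk was measured at 4.44, 5.23 and 5.51 in uterus, 6.07, 4.96 and 5.13 in the eutopic endometrium and 4.43, 4.64 and 5.35 in lesions. Mylk in ERBOE arrays was 4.93, 5.36 and 5.12 in uterus, 5.15, 5.05 and 5.29 in the eutopic endometrium and 4.89, 3.50 and 4.84 in lesions. Mylk encodes myosin light chain kinase, the switch for contraction, and in ERBOE the lesion arrays lay below every eutopic and uterine array of that genotype, while in PRCre they overlapped. In PRCre arrays Smtn had signals of 4.44, 4.77 and 5.26 in uterus, 6.26, 5.06 and 5.01 in the eutopic endometrium and 4.39, 4.76 and 5.19 in lesions. Smtn in ERBOE arrays was 5.14, 5.11 and 4.88 in uterus, 4.81, 5.07 and 4.99 in the eutopic endometrium and 4.45, 3.72 and 4.73 in lesions. Smoothelin, encoded by Smtn, is an actin-binding protein of fully contractile muscle. Its lesion values in ERBOE lay below all other ERBOE values, and the lesion minus eutopic difference over both genotypes was -0.66 ± 0.25 (adjusted p = 0.265 by limma).

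Of the light chains, Myl6 varied least between arrays. In PRCre arrays Myl6 was at 8.60, 8.01 and 8.03 in uterus, 7.97, 7.62 and 8.00 in the eutopic endometrium and 7.24, 7.46 and 7.74 in lesions. Myl6 in ERBOE arrays was 7.75, 8.02 and 7.68 in uterus, 7.77, 7.62 and 7.90 in the eutopic endometrium and 7.61, 7.31 and 7.80 in lesions. All 3 PRCre lesion arrays read below the 3 PRCre uterus arrays, a difference of -0.74 ± 0.22 (unadjusted p = 0.00494, adjusted 0.238 by limma). Myl9, the light chain that the kinase phosphorylates, read 6.62 to 8.04 in lesions, 7.78 to 8.43 in eutopic endometrium and 7.93 to 8.48 in uterus, with -0.51 ± 0.25 and -0.64 ± 0.25 for lesions against eutopic endometrium and against uterus. In PRCre arrays Ppp1r14a gave 3.91, 2.65 and 3.09 in uterus, 3.29, 2.97 and 2.72 in the eutopic endometrium and 2.20, 2.63 and 2.75 in lesions. Ppp1r14a in ERBOE arrays was 3.00, 2.95 and 2.98 in uterus, 2.76, 2.57 and 2.89 in the eutopic endometrium and 2.43, 1.02 and 2.44 in lesions. Ppp1r14a encodes an inhibitor of myosin phosphatase, and its lesion arrays lay at the low end of the 18, with ERBOE lesion replicate 2 lowest at 1.02. The differences were -0.62 ± 0.26 from eutopic endometrium and -0.85 ± 0.26 from uterus (adjusted p = 0.335 and 0.112 by limma). Ppp1r12b, a targeting subunit of that phosphatase, was read by a probe that maps to a noncoding transcript of the gene, at -0.89 to 0.42 in lesions, -0.01 to 0.86 in eutopic endometrium and -0.02 to 1.01 in uterus. Its lesion minus eutopic difference was -0.52 ± 0.20, and the dimmer probe gave -0.11 ± 0.17.

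Intermediate filaments and dense bodies anchor the filaments in the cell. In PRCre arrays Des read 2.90, 2.97 and 2.91 in uterus, 3.70, 2.39 and 2.65 in the eutopic endometrium and 1.72, 2.28 and 3.09 in lesions. Des in ERBOE arrays was 2.34, 2.57 and 2.70 in uterus, 1.94, 2.83 and 2.86 in the eutopic endometrium and 3.67, 1.49 and 2.40 in lesions. Desmin spread widely in lesions, where ERBOE replicate 1 came close to the highest eutopic array and ERBOE replicate 2 was the lowest of all 18. The difference over both genotypes was -0.29 ± 0.35 (interval -1.04 to 0.46). In PRCre arrays Synpo2 was measured at 2.64, 3.49 and 3.68 in uterus, 3.94, 2.95 and 3.69 in the eutopic endometrium and 2.57, 2.86 and 3.23 in lesions. Synpo2 in ERBOE arrays was 2.85, 3.56 and 2.89 in uterus, 3.14, 3.52 and 2.98 in the eutopic endometrium and 1.46, 2.45 and 2.25 in lesions. Synpo2 encodes an actin-bundling protein of dense bodies and Z-discs, and all 3 ERBOE lesion arrays lay below the other 15 arrays. Here ERBOE replicate 1, not replicate 2, was the lowest. The lesion minus eutopic difference was -0.90 ± 0.25 (interval -1.44 to -0.36, adjusted p = 0.122 by limma), a dimmer probe gave -0.76 ± 0.27, and the gene passed when slide was a block or arrays were weighted.

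Ldb3 encodes a protein of the Z-disc and dense body with PDZ and LIM domains. In PRCre arrays Ldb3 had signals of -1.66, -1.93 and -2.72 in uterus, -1.66, -1.62 and -1.29 in the eutopic endometrium and -2.45, -2.33 and -2.76 in lesions. Ldb3 in ERBOE arrays was -1.58, -2.03 and -2.82 in uterus, -2.15, -1.77 and -3.18 in the eutopic endometrium and -1.49, -3.04 and -2.41 in lesions. The 3 PRCre eutopic arrays lay above the 3 ERBOE eutopic arrays and above the 3 PRCre lesion arrays. A dimmer Ldb3 probe gave 0.03 ± 0.45 for lesions against eutopic endometrium over both genotypes, against -0.47 ± 0.31 for the brightest one. In PRCre arrays Vcl was at 1.48, 2.80 and 2.67 in uterus, 2.78, 2.88 and 2.72 in the eutopic endometrium and 2.40, 2.80 and 2.33 in lesions. Vcl in ERBOE arrays was 2.46, 3.17 and 2.54 in uterus, 2.75, 2.19 and 2.16 in the eutopic endometrium and 2.64, 2.16 and 2.91 in lesions. Vinculin, encoded by Vcl, links filaments to the membrane, and its tissues overlapped, with -0.04 ± 0.24 for lesions against eutopic endometrium (interval -0.55 to 0.46). In PRCre arrays Csrp1 gave 7.75, 7.91 and 7.93 in uterus, 8.28, 7.65 and 7.59 in the eutopic endometrium and 6.77, 7.52 and 7.60 in lesions. Csrp1 in ERBOE arrays was 7.53, 7.64 and 7.57 in uterus, 7.43, 7.76 and 7.59 in the eutopic endometrium and 7.92, 7.37 and 7.67 in lesions. The LIM protein encoded by Csrp1 had a lesion minus eutopic difference of -0.24 ± 0.18, and its lowest array was PRCre lesion replicate 1.

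For 4 other cytoskeletal genes the lesion ranges overlapped the eutopic ranges. Synm, synemin, read -0.52 to 0.36 in lesions and -0.39 to 1.93 in eutopic endometrium (-0.40 ± 0.37). Flna, filamin A, read 5.65 to 6.63 and 6.35 to 7.29 (-0.32 ± 0.30), and its lowest array was PRCre uterus replicate 1, the dim array. Actn1, an alpha-actinin that also occurs outside muscle, read 3.79 to 5.06 and 4.12 to 4.76 (-0.01 ± 0.29, interval -0.62 to 0.61). Pgm5, aciculin, a protein of muscle adhesion sites, read 1.96 to 3.19 and 3.03 to 4.28 (-0.44 ± 0.24).

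The dystrophin complex, which ties the cytoskeleton to the matrix, held one of the 2 genes that passed, Sgcd, which did so against uterus. In PRCre arrays Sgcd read -3.60, -4.0 and -3.42 in uterus, -3.33, -3.30 and -3.99 in the eutopic endometrium and -3.45, -2.45 and -2.69 in lesions. Sgcd in ERBOE arrays was -3.82, -3.62 and -3.18 in uterus, -3.63, -3.49 and -3.26 in the eutopic endometrium and -2.33, -2.66 and -2.34 in lesions. In ERBOE all 3 lesion arrays of Sgcd lay above all 6 eutopic and uterine arrays, and in PRCre replicates 2 and 3 did so while replicate 1 did not. Group means in PRCre were -3.67 ± 0.30 in uterus, -3.54 ± 0.39 in eutopic endometrium and -2.86 ± 0.52 in lesions (SD, n = 3). In ERBOE they were -3.54 ± 0.33, -3.46 ± 0.19 and -2.44 ± 0.19. Lesions exceeded eutopic endometrium by 0.85 ± 0.20 over both genotypes (adjusted p = 0.0593 by limma). Sgcd had a single probe, so no second reading exists here. In PRCre arrays Dmd was measured at -0.89, -1.85 and -0.97 in uterus, -0.49, -0.78 and -0.83 in the eutopic endometrium and -1.48, -1.10 and -0.87 in lesions. Dmd in ERBOE arrays was -0.76, -0.79 and -0.91 in uterus, -0.77, -0.92 and -0.64 in the eutopic endometrium and -0.95, -1.75 and -1.07 in lesions. Dystrophin, encoded by Dmd, read lower in lesions than in eutopic endometrium in both genotypes without overlap, with differences of -0.45 in PRCre and -0.48 in ERBOE, though neither passed. Over both genotypes the difference was -0.46 ± 0.20 (adjusted p = 0.337), and from uterus it was -0.17 ± 0.20.

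Calcium handling held the other gene that passed. Pln encodes phospholamban, which restrains the calcium pump of the sarcoplasmic reticulum. In PRCre arrays Pln had signals of -5.14, -3.97 and -4.42 in uterus, -2.30, -3.09 and -3.99 in the eutopic endometrium and -4.71, -6.10 and -5.65 in lesions. Pln in ERBOE arrays was -5.41, -4.46 and -4.41 in uterus, -4.25, -3.57 and -2.99 in the eutopic endometrium and -6.63, -6.21 and -4.64 in lesions. Eutopic endometrium was highest and lesions were lowest, and uterus lay between and overlapped both. The PRCre means were -4.51 ± 0.59 in uterus, -3.12 ± 0.85 in eutopic endometrium and -5.49 ± 0.71 in lesions (SD, n = 3). The ERBOE means were -4.76 ± 0.56, -3.60 ± 0.63 and -5.82 ± 1.05. Its probe was well above background on all 6 eutopic arrays, on 1 of 3 uterus arrays in each genotype, on 1 of 3 PRCre lesion arrays and on 0 of 3 ERBOE lesion arrays. For ERBOE the fall is therefore only a bound, at least 1.90-fold lower in lesions than in eutopic endometrium, taken against the dimmest probe signals that counted as above background. The gene kept its call when any one array was left out (-2.59 to -2.08), but not with background removed from the median spot signal, where the difference was -0.59 ± 0.17 (adjusted p = 0.126).

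Casq2 encodes calsequestrin, which binds calcium inside the store. In PRCre arrays Casq2 was at -2.59, -1.32 and -1.17 in uterus, -1.15, -3.31 and -1.64 in the eutopic endometrium and -2.61, -2.50 and -1.97 in lesions. Casq2 in ERBOE arrays was -2.01, -0.67 and -1.96 in uterus, -1.61, -1.63 and -2.24 in the eutopic endometrium and -1.66, -2.40 and -1.61 in lesions. Its tissues overlapped, with -0.20 ± 0.38 for lesions against eutopic endometrium (interval -1.0 to 0.61). In PRCre arrays Cacna1c gave 1.11, 1.65 and 1.66 in uterus, 2.41, 1.93 and 1.52 in the eutopic endometrium and 1.45, 1.76 and 1.43 in lesions. Cacna1c in ERBOE arrays was 1.42, 1.55 and 1.57 in uterus, 1.83, 1.33 and 1.57 in the eutopic endometrium and 1.21, 0.52 and 1.23 in lesions. For Cacna1c the 3 ERBOE lesion arrays lay below the 3 PRCre lesion arrays and below the ERBOE eutopic and uterine arrays. Its probes differed in sign for the genotype difference in lesions. The lesion minus eutopic difference was -0.50 ± 0.19 over both genotypes (adjusted p = 0.273 by limma), and its 4 probes gave values from -0.79 to -0.10.

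The potassium channel that opposes contraction is made of the pore Kcnma1 and the accessory subunit Kcnmb1. In PRCre arrays Kcnma1 read -1.91, -2.20 and -1.58 in uterus, -1.30, -1.56 and -1.34 in the eutopic endometrium and -1.09, -1.69 and -1.24 in lesions. Kcnma1 in ERBOE arrays was -0.87, -1.26 and -1.23 in uterus, -1.20, -0.95 and -1.51 in the eutopic endometrium and 0.10, -1.36 and -1.03 in lesions. Kcnma1 read higher in all 3 ERBOE uterus arrays than in the 3 PRCre uterus arrays (0.78 ± 0.32, interval 0.08 to 1.47), and ERBOE lesion replicate 1 was the highest of the 18 arrays. In PRCre arrays Kcnmb1 was measured at -1.05, -1.60 and -1.39 in uterus, -0.77, -0.79 and -1.33 in the eutopic endometrium and -2.64, -1.07 and -1.57 in lesions. Kcnmb1 in ERBOE arrays was -1.56, -1.42 and -1.96 in uterus, -1.67, -2.25 and -2.24 in the eutopic endometrium and -1.49, -2.83 and -1.49 in lesions. Kcnmb1 in eutopic endometrium read lower in all 3 ERBOE arrays than in PRCre (-1.09 ± 0.41, interval -1.96 to -0.22, adjusted p = 1 by limma). Hspb6, a small heat shock protein phosphorylated during relaxation, read -0.55 to 0.74 in lesions, -0.15 to 1.03 in eutopic endometrium and -0.17 to 0.89 in uterus, with -0.29 ± 0.29 for lesions against eutopic endometrium. The probes of Hspb6 differed in sign for that difference and for lesions against uterus.

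**Figure D5:**
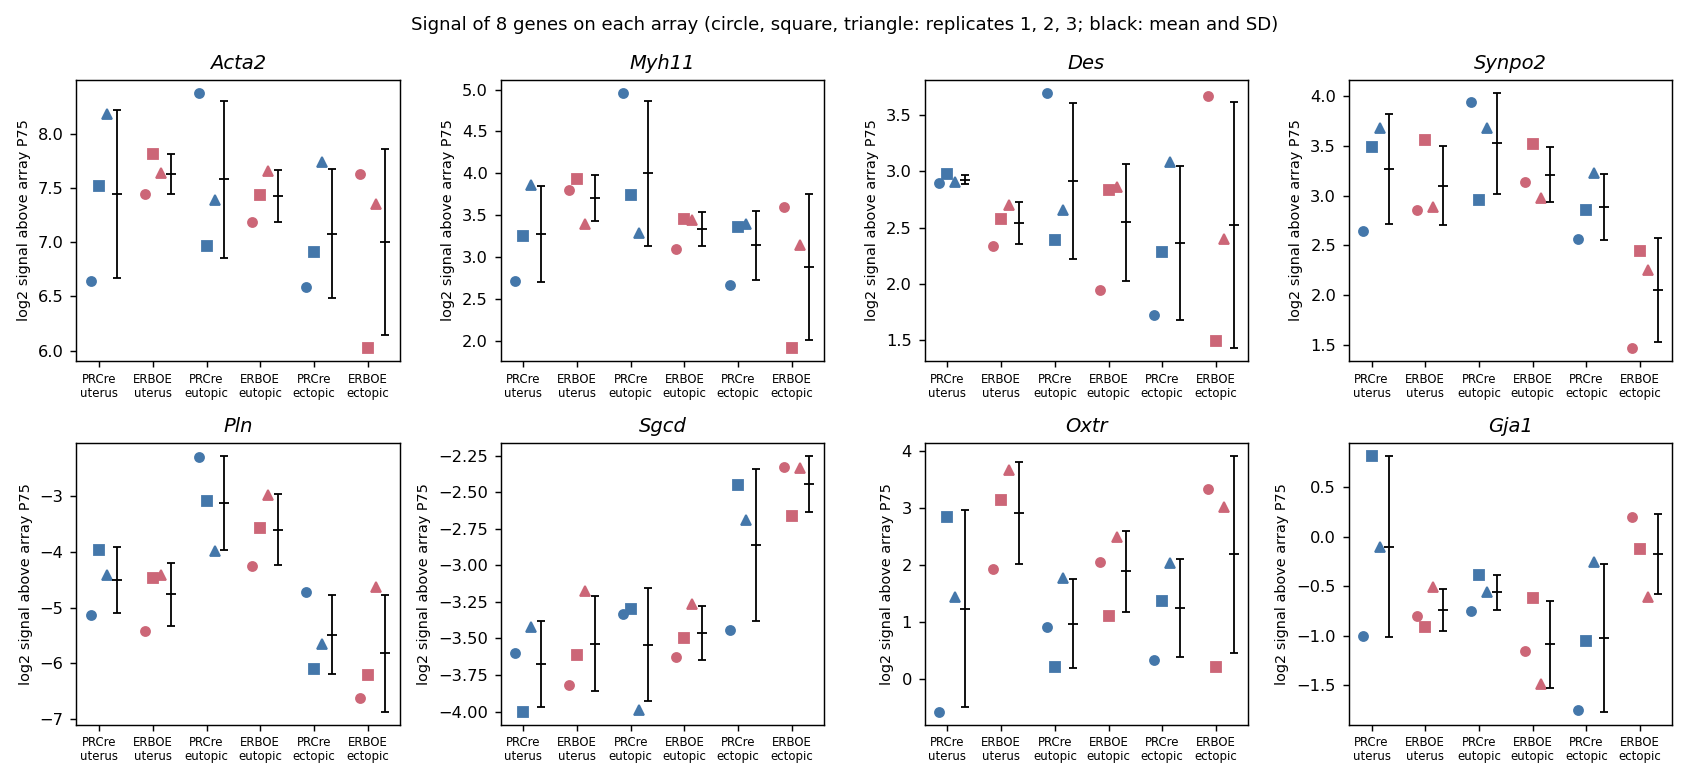
Log2 signal above the array's 75th percentile (P75) for 8 genes on each array, by group, with circle, square and triangle for replicates 1, 2 and 3, blue for PRCre, red for ERBOE, and the group mean with its SD in black. Pln is lowest and Sgcd highest in lesions, the 3 ERBOE lesion values of Synpo2 lie below the other 15, and Oxtr spreads from -0.56 to 2.85 within PRCre uterus alone.

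Oxtr and Gja1 mark the labouring uterus, where oxytocin signals through its receptor and gap junctions couple the muscle cells. In PRCre arrays Oxtr had signals of -0.56, 2.85 and 1.44 in uterus, 0.92, 0.22 and 1.77 in the eutopic endometrium and 0.34, 1.37 and 2.04 in lesions. Oxtr in ERBOE arrays was 1.94, 3.13 and 3.67 in uterus, 2.06, 1.11 and 2.49 in the eutopic endometrium and 3.34, 0.21 and 3.02 in lesions. The mean of Oxtr was higher in ERBOE in each tissue, by 1.67, 0.92 and 0.94 (SE 0.90 each), but groups overlapped in every tissue and no difference passed (adjusted p = 0.559, 1 and 0.994 by limma). Without PRCre uterus replicate 1 the uterus difference was 0.77, and without PRCre uterus replicate 2 it was 2.48. Between uterus arrays of the same number, which also shared a slide, Oxtr was higher in ERBOE by 2.50, 0.29 and 2.23, and a limma fit of those 6 arrays with the number as a block gave 1.67 ± 0.50 (adjusted p = 0.333). In PRCre arrays Gja1 was at -1.01, 0.82 and -0.11 in uterus, -0.75, -0.39 and -0.56 in the eutopic endometrium and -1.75, -1.06 and -0.25 in lesions. Gja1 in ERBOE arrays was -0.80, -0.92 and -0.51 in uterus, -1.16, -0.62 and -1.49 in the eutopic endometrium and 0.20, -0.12 and -0.60 in lesions. Gja1, a connexin of gap junctions, differed between genotypes by -0.64 in uterus, -0.53 in eutopic endometrium and 0.85 in lesions (SE 0.43 each). In ERBOE all 3 lesion arrays lay above all 3 eutopic arrays, and the single value of 0.82 in PRCre uterus replicate 2 was the highest of all. In PRCre arrays Myocd gave -1.32, -0.06 and 0.32 in uterus, 1.13, 0.35 and -0.09 in the eutopic endometrium and -0.04, 0.61 and 0.24 in lesions. Myocd in ERBOE arrays was 0.77, 0.46 and 0.47 in uterus, 0.69, 0.20 and 0.75 in the eutopic endometrium and 0.26, -0.94 and 0.18 in lesions. Myocardin, encoded by Myocd, was higher in all 3 ERBOE uterus arrays than in PRCre (0.92 ± 0.43, interval 0.00 to 1.83), with PRCre uterus replicate 1, the dim array, lowest. Without that array the difference was 0.44, and without PRCre uterus replicate 3 it was 1.25. Between lesions and eutopic endometrium it differed by -0.45 ± 0.30.

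Genes around the contractile apparatus were read from 5 lists. Of their 97 genes 1 passed in lesions against eutopic endometrium and 3 against uterus, where 1.28% and 2.1% of all features did, so these counts are near the background. Of 13 regulators of smooth muscle transcription, 1 passed against eutopic endometrium and 1 against uterus, both times Nkx2-3, a homeobox factor of gut and spleen mesenchyme, higher in lesions by 3.16 ± 0.36 and 2.80 ± 0.36 (adjusted p = 0.000669 and 0.000842). Medians of that list were -0.01 and 0.12. Of 10 genes of relaxation through cyclic nucleotides 0 passed by limma in either comparison, with 1 and 1 at an unadjusted p under 0.05 (medians -0.20 and -0.14). Of 18 receptors and channels of the myometrium 0 passed, with 4 and 2 at that level (medians -0.16 and -0.07). Among all features 12.5% and 16.3% had such a p in these comparisons. Among 38 genes of adhesion plaques, cytoskeleton and the dystrophin complex, Itga8, an integrin of smooth muscle and mesenchyme, rose in lesions against uterus by 2.15 ± 0.50, and list medians were 0.02 and 0.06. Among 19 other smooth muscle genes Aoc3, an amine oxidase found in both smooth muscle and fat cells, rose against uterus by 1.34 ± 0.27, with list medians of -0.01 and 0.12. For eutopic endometrium against uterus 0 of the 97 genes of the 5 lists passed by limma. An unadjusted p under 0.05 was met by 1 of them, against 3.95% of all features. Between genotypes 0 of them passed in any tissue, with 11, 2 and 4 at an unadjusted p under 0.05 in uterus, eutopic endometrium and lesions, where 9.93%, 2.94% and 4.42% of all features were. The 35 contractile genes had medians of -0.41 and -0.35 in the same comparisons, a description with no test. Probes of the 35 genes agreed in sign with one another for 18 of the 21 genes with several probes in lesions against eutopic endometrium, and for 16 of 21 in lesions against uterus. In eutopic endometrium against uterus they agreed for 16 of 21. Between genotypes they agreed for 15 of 21 genes in uterus, 14 in eutopic endometrium and 18 in lesions.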

How the data were processed

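RNA was measured on 18 one-colour Agilent mouse arrays, 3 in each of 6 groups, each from RNA pooled from 3 animals. Scanner files were made by the authors with Feature Extraction 11.0.1.1, per the file headers. The deposited scanner files hold spot intensity, background-subtracted and not scaled between arrays. Deposited log2 values in the series table are centred near 0 per probe, with scaling not given in the sources used here. Array medians there were -0.15 to 0.36, they correlated with the centred scanner values at r = 0.995 to 0.998 across probes, in the same direction, and the table served as an alternative.

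From the processed intensity, control and outlier spots were left out, log2 was taken and each array's 75th percentile was subtracted. Repeat spots of a probe were averaged, and probes were kept where well above background on at least 3 of 18 arrays, and the brightest probe stood for each symbol, named through the RefSeq table of GRCm38.p6. This gave 33178 features.

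A linear model of 6 group means was fitted to all 18 arrays with limma 3.58.1 in R 4.3.3 (12 residual degrees of freedom, 2-sided tests, Benjamini-Hochberg over all features, threshold 0.05), after the model was tested on simulated data with known shifts. The replicates are separate pools. With 3 arrays against 3, an exact permutation test cannot go below p = 0.1, so none was run. Precision is limited by how few arrays there are. A fold against a group with no array above background is a bound.

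The 35 genes, the gene lists and the comparisons were chosen with earlier results of these data known. All 35 genes are accounted for. In full are Acta2, Actg2, Myh11, Tagln, Cnn1, Des, Smtn, Mylk, Lmod1, Synpo2, Pln, Kcnmb1, Cacna1c, Casq2, Oxtr, Gja1 and Myocd, and in each comparison up to 5 genes each way past the threshold or, where none passed, the 3 with the smallest p. From each list up to 3 genes each way past the threshold are named in the tissue comparisons. The summaries and figures were made with Python 3.11.15 and pandas 2.3.3. Alternatives were the deposited value table, the mean of a gene's probes, a trended and robust variance, quantile normalization, a stricter and no filter on dim probes, slide or replicate number as a block, array weights and leaving out arrays. Background correction by normexp on the mean spot signal could not be run on these files, so it was run on the median spot signal with an offset of 50, chosen after seeing the data, as were leaving out both outlying arrays and a paired fit of 2 groups. One further gene list is not reported here.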

Additional observations from a re-analysis of the deposited data

How the results depend on the processing

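Directions of the 35-gene medians in lesions against eutopic endometrium and against uterus, as means of both genotypes, held under all alternatives run (-0.43 to -0.07 and -0.36 to -0.13 apart from single arrays left out). At -0.07, without both outlying arrays, the median of all features was -0.08, so no shift beyond that of all features was left there. The counts past the threshold did not. For lesions against eutopic endometrium 1 gene became 0 with normexp, 0 when probes had to be above background on all 18 arrays (Pln, Sgcd and Lmod1 were then untested), 0 without both outlying arrays, 2 with slide as a block, 3 with array weights, and 1 to 2 without single arrays. In ERBOE alone that count was 3 with array weights and 0 otherwise. For lesions against uterus 1 gene became 0 with normexp, quantile normalization or the strictest filter, 2 with array weights, and 0 to 1 without single arrays. In ERBOE alone array weights gave 2, and the F test over 6 groups gave 1 with them. With the replicate number as a block, the counts stayed at 1 and 1 (Pln -2.29, Sgcd 0.95), and the block changed no other call. Over all groups the numbers were not shown to pair the arrays: of 45 same-numbered pairs 20 correlated above 0.1 in their deviations (range -0.35 to 0.44), and 8 of 18 arrays were closest to their own number. All 3 pairs did so for both genotypes of uterus (0.31 to 0.44, each pair also on 1 slide) and for PRCre lesions with PRCre eutopic endometrium (0.13 to 0.34). A replicate block fitted to those 2 groups alone, added after seeing the data, gave 0 genes past the threshold in each comparison, with 2 and 2 at an unadjusted p under 0.05. Counts under the alternatives are given without the share of all features in the same setting, so they are not read against the background. The adjusted p of limma ran from 0.00594 to 0.126 for Pln in the first comparison and from 0.0103 to 0.316 for Sgcd in the second, and Sgcd differed by 0.27 with normexp. Csrp1 in PRCre lesions against uterus went from -0.57 to 0.021 with quantile normalization. Why these values moved was not tested beyond the genes and arrays left out. The median of all features in uterus between genotypes ran from -0.27 to -0.01, so a shift of the whole array can move any small difference there. Pln, Sgcd and Lmod1 lie near background, which limits their readings, and 3 arrays a group limit all others. Normexp on the mean spot signal was not run.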
